A study of Saccharomyces cerevisiae with 12 samples.

Results

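The data compare messenger RNA of the budding yeast strain Y18daft2, labelled as lacking both AFT1 and AFT2, with that of its wild-type partner CM3260 while both grew in hydroxyurea. Two-colour spotted slides were used, each carrying labelled RNA of both strains. All measurements of this strain pair in the drug were taken, that is 4 of the 12 deposited columns, which come from 2 of the 6 slides, each scanned at a strong and a weak setting. Channels were exchanged between the slides, with the mutant in channel 2 on replicate 1 and in channel 1 on replicate 2. A single gene symbol was known for 3344 of the 6912 spots, and these spots give the 3127 genes described here. Per the labels, both strains were grown in YPD, a rich medium, until the culture's optical density was 0.5, and 200 mM hydroxyurea was then present for 2 hours. Of the other slides, 2 carry the same strains in rich medium without the drug, and 2 carry an aft1 deletion in BY4741 over BY4741 in the drug. The labels give the rich medium cultures the same optical density of 0.5 and no further 2 hours. Between hydroxyurea and rich medium the drug and the added time therefore cannot be told apart. By their labels the aft1 strain and Y18daft2 differ in AFT2 and in strain background. The AFT1 and AFT2 spots did not bear out the label of Y18daft2, as given below, so its name stands here for the strain so labelled.

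Aft1 and Aft2 are transcription factors that switch on the genes of iron acquisition when iron is scarce. Their targets bring iron across the cell surface, either as siderophores, which are iron-binding molecules made by microbes, or as reduced free iron, and they also release iron from the vacuole and spare its use. Hydroxyurea blocks ribonucleotide reductase, an iron enzyme that makes the building blocks of DNA, and so slows replication.

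Each value is a log2 ratio, mutant over wild type. The deposited table does not state the log base or the direction of the ratio. Base 2 was assumed, and the direction is called likely because it was set from the AFT1 spot on the slides of the aft1 strain. Each gene has 1 value per slide, the mean of its scans, so n is 2 slides throughout, and each standard error comes from 1 model (limma) over all 6 slides of the table. The labels do not say whether the slides carry separate cultures, so the spread behind the p-values may be technical. That spread was pooled over the 6 slides and drawn in part from other genes. It is therefore not the spread between the 2 slides of this comparison. Less RNA per cell and fewer cells of a kind cannot be told apart in such bulk samples.

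The slides of the hydroxyurea comparison agreed less with each other than those of the other comparisons. Across genes, the correlation of the ratios between slides was 0.29 here, 0.59 for the same strains in rich medium and 0.55 for the aft1 strain, and genes are not independent replicates. The median absolute deviation of the log2 ratios over genes was 0.110, below 0.159 in rich medium and 0.165 in the aft1 strain, while the median standard error was 0.116. The ratios had the same sign on both slides for 1612 genes, or 51.6%, with 811 lower and 801 higher. Before normalisation the columns, in channel orientation, correlated at 0.77 between the slides, and their medians lay between -0.53 and -0.06. In strong scans of these slides 103 of 13824 values were exact zeros and were treated as missing. They touched 39 genes and none of the genes named below as lowest, highest or past the threshold in hydroxyurea.

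In hydroxyurea 5 of 3127 genes (0.16%) passed an adjusted p of 0.05 in limma with Benjamini-Hochberg adjustment, 4 lower and 1 higher in the mutant. The lower genes were ENB1 and FIT3, both of siderophore iron uptake, AHA1, a co-chaperone, and PRM4, a pheromone-regulated gene, and the higher gene was OLE1, the fatty acid desaturase. An unadjusted p under 0.05 was reached by 174 genes (115 lower, 59 higher), where 5% of the genes tested is 156.4. By the size of the ratio alone, 3 genes were at least 2-fold lower on both slides and 0 were 2-fold higher. At 1.5-fold on both slides the numbers were 6 and 1.

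ENB1 (YOL158C), the plasma membrane transporter of the siderophore enterobactin, had the lowest ratio of all. It read -2.09 and -2.41 in the weak and strong scans of replicate 1, and -2.14 and -2.36 in those of replicate 2. Both slides gave -2.25, and the scans differed more from each other than the slides did. ENB1 was 4.75-fold lower (log2 -2.25, SE 0.112, n = 2 slides; adjusted p = 4.0e-06, limma).

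FIT3 (YOR383C), a cell wall mannoprotein that retains siderophore-bound iron, read -1.36 and -1.49 in replicate 1 and -1.53 and -2.10 in replicate 2. The strong scan of replicate 2 was the lowest of the 4, and the other scans lay close together. FIT3 was 3.07-fold lower (log2 -1.62, SE 0.1295; adjusted p = 0.000152, limma). Its neighbours in RefSeq's order of the genes, the related mannoprotein FIT2 and the reductase FRE5, read 0.22 and 0.10 and did not pass, and those of ENB1, CSS3 and IMA2, both read 0.08.

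AHA1 (YDR214W), which stimulates the ATPase activity of the chaperone Hsp90, read -1.29 and -1.57 in replicate 1 and -1.36 and -1.66 in replicate 2. The slides gave -1.43 and -1.51, so both lie apart from all genes other than ENB1 and FIT3. It was 2.77-fold lower (log2 -1.47, SE 0.112; adjusted p = 0.000137, limma).

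PRM4 (YPL156C), a gene induced by mating pheromone, read -0.71 and -0.95 in replicate 1 and -0.90 and -1.12 in replicate 2. It was 1.89-fold lower (log2 -0.92, SE 0.113; adjusted p = 0.00508, limma). OLE1 (YGL055W), the iron-containing delta-9 desaturase that makes the unsaturated fatty acids of the cell, was the single gene past the threshold on the higher side. It read 0.87 and 0.89 in replicate 1 and 0.96 and 0.97 in replicate 2, the closest set of 4 scans among these genes. It was 1.89-fold higher (log2 0.92, SE 0.110; adjusted p = 0.00508, limma).

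Fewer genes passed when a hydroxyurea slide was left out: 2 without replicate 1, ENB1 and FIT3, and 1 without replicate 2, ENB1. Without replicate 1 the adjusted p in limma was 0.0719 for AHA1 and 0.157 for both PRM4 and OLE1, and without replicate 2 it was 0.12 for FIT3 and AHA1 and 0.993 for PRM4 and OLE1. In the values as deposited or only median-centred, ENB1 and FIT3 passed and AHA1 (adjusted p = 0.0664 and 0.0678, limma), PRM4 and OLE1 did not. Leaving out either rich medium slide, which changes the estimate of the spread, gave 29 genes, all 5 among them.

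**Figure D1:**
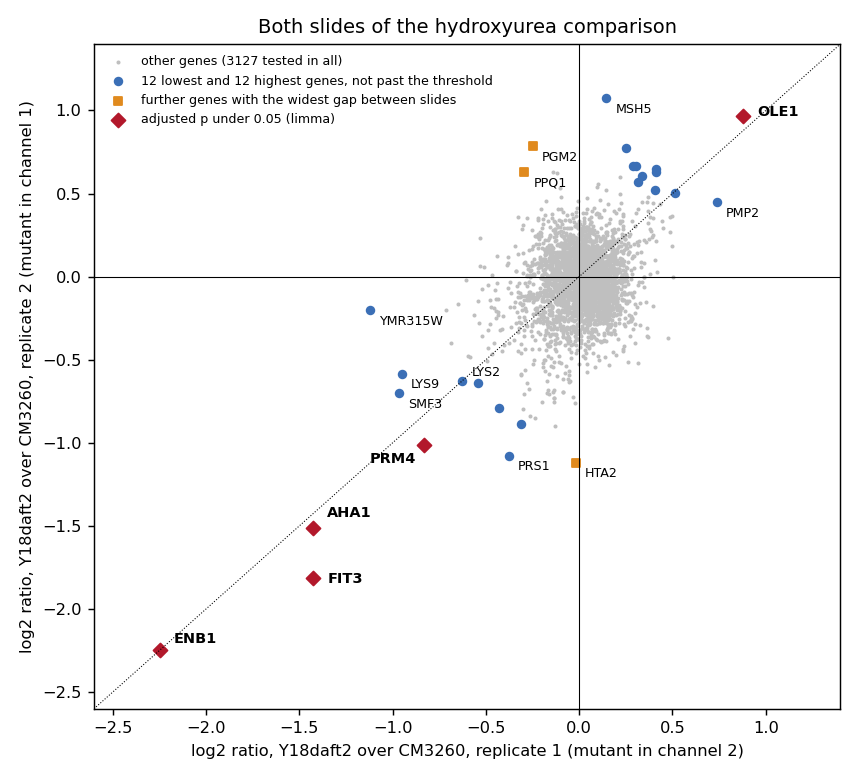
Log2 ratio of Y18daft2 over CM3260 in hydroxyurea for 3127 genes, replicate 1 on the horizontal and replicate 2 on the vertical axis, each point 1 gene and the dotted line equality. ENB1, FIT3, AHA1 and PRM4 lie at the lower left and OLE1 at the upper right of the cloud, which shows little slope, while HTA2, PGM2 and PPQ1 lie far from the dotted line.

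The genes labelled as deleted did not stand apart, which goes against the label of the strain. AFT1 read -0.25 and -0.10 on the slides and AFT2 -0.15 and -0.18, and neither passed (adjusted p = 0.998 for both, limma). In the aft1 strain the same AFT1 spot read -2.82 and -3.29 (fitted -3.06; adjusted p = 1.9e-06, limma), and the difference between the strains passed the test, as given below. The parts of the genes removed in each strain are not described in the labels, so whether the spots lie inside the deletions of Y18daft2 is unknown. The genotype of Y18daft2 therefore rests on its label, and the direction of its ratios on the slides of the aft1 strain. The genes next to them read close to 0, with HSF1 at -0.11 and RPB9 at -0.03 beside AFT1, and TPK2 at -0.02 and YIG1 at -0.08 beside AFT2.

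Of the siderophore genes, 3 of the 7 listed were measured, and 2 of these, ENB1 and FIT3, passed as lower, beside 0.16% of all genes. FIT2, a cell wall mannoprotein like FIT3, read 0.22 on replicate 1 and 0.21 on replicate 2 (95% interval of the fitted ratio -0.02 to 0.46). FIT1 and the siderophore transporters ARN1, ARN2 and SIT1 were not analysed here.

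Of the genes of reductive uptake, 0 of 5 measured passed, beside 0.16% of all genes, so the count says nothing particular of these genes. ATX1, the copper chaperone that supplies the copper of the iron oxidase, read -0.49 and -0.51 (fitted -0.50, 95% interval -0.74 to -0.26; adjusted p = 0.184, limma). The other 4 measured genes, FRE2 to FRE5, encode ferric reductases and lay between -0.25 for FRE3 and 0.13 for FRE4. FRE3 was below 0 on both slides, at -0.31 and -0.20, whereas FRE2 (0.15 and -0.34) and FRE5 (0.36 and -0.15) changed sign between slides. The iron oxidase FET3, its permease FTR1 and the reductase FRE1 were not analysed here.

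The list of vacuolar iron and iron sparing genes lay mostly below 0. In this list 7 of 8 measured genes were below 0, 5 of them on both slides, with a median of -0.19. Of all genes 50.9% were below 0, with a median of -0.003. In the list 0 passed the test, beside 0.16% of all genes. SMF3, which exports iron from the vacuole, read -0.82 and -1.12 in the scans of replicate 1 and -0.62 and -0.79 in those of replicate 2 (fitted -0.83, SE 0.155; adjusted p = 0.0952, limma). The vacuolar reductase FRE6 read -0.17 and -0.63 on the slides, the vacuolar permease FTH1 -0.42 and -0.32, and TIS11, which marks messages of iron-using proteins for decay, -0.44 and -0.14. Its relative CTH1 read -0.02, the vacuolar iron importer CCC1 -0.03, and the transporters BIO5 and VHT1 of the biotin pathway -0.09 and 0.01. Each of these was smaller in size than its standard error.

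Among the genes that sense iron or build iron-sulfur clusters, none passed, beside 0.16% of all genes. FRA1, which restrains Aft1 when iron is plentiful, read -0.29 and -0.32. The other sensing genes were YAP5, the activator used at high iron, at -0.07 and the Aft1 regulator BOL2 at 0.00. In the list of iron-sulfur cluster assembly and mitochondrial iron, 9 of 16 genes were below 0 with a median of -0.01, from the mitochondrial iron carrier MRS4 at -0.29 to the metal transporter MMT2 at 0.17.

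**Figure D2:**
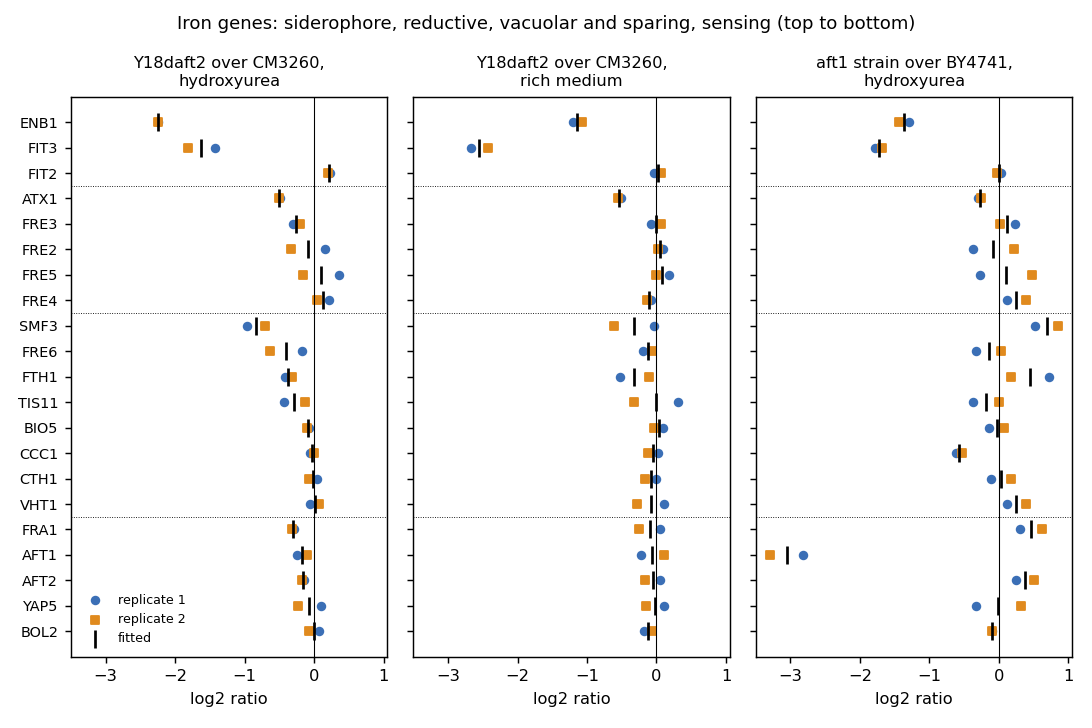
Log2 ratios of 21 iron genes in the 3 comparisons, circles for replicate 1, squares for replicate 2 and bars for the fitted value, with dotted lines between the gene lists. In the left panel ENB1 at -2.25 and FIT3 at -1.62 stand apart from the other iron genes, of which SMF3 at -0.83 is the lowest.

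The next lowest ratios below the threshold genes belonged to varied functions. After SMF3 came LYS9, an enzyme of lysine synthesis, with -0.95 and -0.58 on the slides (adjusted p = 0.0671, limma). PRS1, a phosphoribosyl pyrophosphate synthetase, followed with -0.38 and -1.08, and then the gene YMR315W with -1.12 and -0.20. LYS2, also of lysine synthesis, came next and read -0.63 on both slides (adjusted p = 0.0671, limma). The third lysine gene measured of the 9 listed, LYS5, read 0.12. The phosphatase PTC2 had a fitted ratio of -0.61, TMA22, a protein associated with ribosomes, -0.60, and the ribosome-associated chaperone ZUO1 -0.59, each with the same sign in all 4 scans.

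On the higher side, the genes after OLE1 lay between 0.44 and 0.61 and did not pass. MSH5, a meiotic gene, owed its fitted 0.61 mainly to replicate 2, with 0.15 and 1.07 on the slides. PMP2, a small regulator of the plasma membrane proton pump, read 0.74 and 0.45. The stress protein HSP12 had 0.53, CHO2, which methylates phosphatidylethanolamine, 0.52, the anaphase-promoting complex subunit CDC26 0.51, and CYC1, the main cytochrome c, 0.51. The remaining 5 were the secreted glycoprotein YGP1 (0.48), the polyamine exporter TPO2 (0.48), the ubiquitin-activating enzyme UBA1 (0.47), cystathionine beta-synthase CYS4 (0.46) and the fatty acid synthase subunit FAS1 (0.44).

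**Figure D3:**
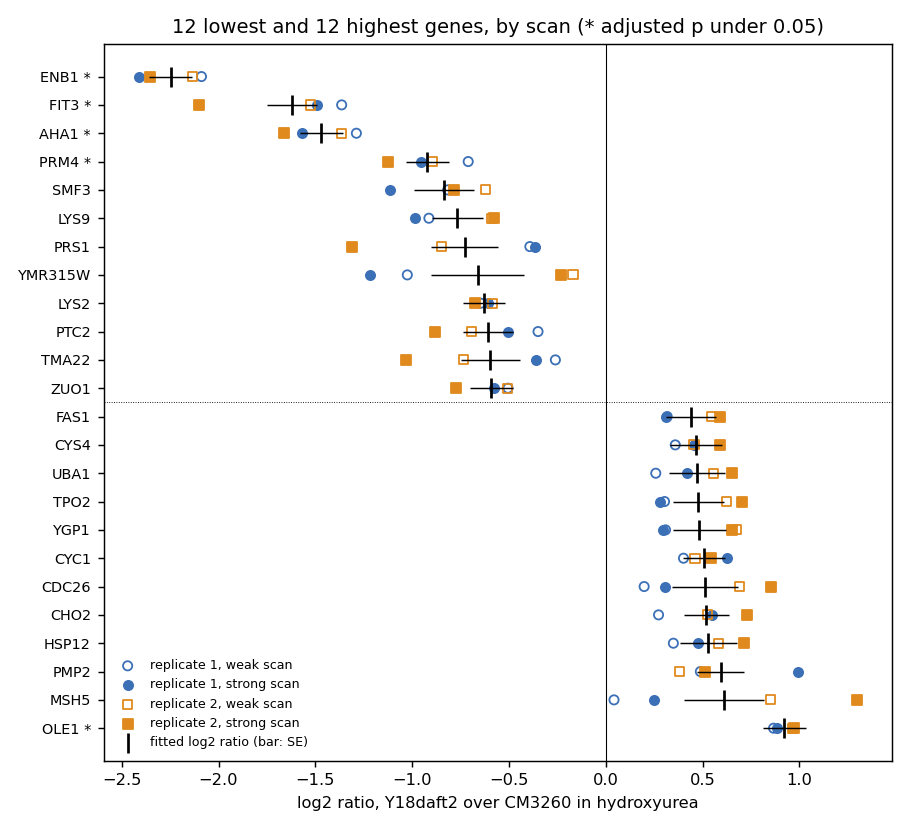
Log2 ratio in each scan of the 12 lowest and 12 highest genes that had 1 sign in every scan, with open symbols for weak and filled for strong scans, circles for replicate 1 and squares for replicate 2, and a bar for the fitted value with its standard error. The scans of OLE1 and LYS2 lie close together, while MSH5 and YMR315W split by slide.

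Gaps between slides were widest for HTA2, a histone H2A gene, at -0.02 and -1.12, and for PGM2, phosphoglucomutase, at -0.25 and 0.78. MSH5 and YMR315W, given above, and PPQ1, a protein phosphatase, at -0.29 and 0.63 followed. In the weak and strong scans HTA2 read -0.06 and 0.03 on replicate 1 and -0.86 and -1.38 on replicate 2, and PGM2 read -0.19 and -0.31 on replicate 1 and 0.68 and 0.89 on replicate 2. For both genes the scans of the slides did not overlap, and for HTA2 those of replicate 2 also lay apart from each other.

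Most genes of mitochondrial respiration lay above 0. Of 22 respiratory chain genes measured, 15 were above 0, 14 of them on both slides, and the median was 0.12, while 49.1% of all genes were above 0. None passed the test, beside 0.16% of all genes, and 8 had an unadjusted p under 0.05 in limma, where 174 of all 3127 genes had one. The highest were CYC1 at 0.51 and the cytochrome oxidase subunits COX12 at 0.41 and COX13 at 0.32, and the lowest was COR1, a subunit of complex III, at -0.48 (-0.20 and -0.76 on the slides). The ATP synthase list had 9 of 11 genes above 0 and a median of 0.14, from ATP5 at -0.34 to INH1, an inhibitor of the enzyme, at 0.43. Of the 5 heme synthesis genes 4 were above 0, led by HEM13, coproporphyrinogen oxidase, at 0.39.

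In rich medium these lists lay on the other side of 0. There 21 of the 22 respiratory chain genes, 10 of the 11 ATP synthase genes and all 5 heme genes were below 0, with medians of -0.23, -0.25 and -0.29, while 48.6% of all genes were below 0. The ratio in hydroxyurea was above that in rich medium for 18 of 22 respiratory chain genes, 9 of 11 ATP synthase genes and 5 of 5 heme genes, against 46.6% of all genes. For CYC1 and INH1 the difference itself passed the test, as given below. The medians in hydroxyurea stayed above 0 under each of 9 other treatments of the values, from 0.10 to 0.19 for the respiratory chain and from 0.08 to 0.19 for ATP synthase. The values as deposited, columns taken as already turned and other changes of the model are not among these 9. In the aft1 strain, also in hydroxyurea, most genes of these lists were below 0. The counts there were 20 of 22 respiratory chain, 10 of 11 ATP synthase and 4 of 5 heme genes. Their medians were -0.30, -0.20 and -0.10, beside -0.007 for all genes. What sets the sign of these lists was not tested.

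Chaperones of the Hsp90 system had 8 of 10 genes below 0, 7 of them on both slides, with a median of -0.13. Of all genes 50.9% were below 0. AHA1 alone passed, beside 0.16% of all genes. The cyclophilin CPR7 read -0.48 and -0.28, PPT1, a phosphatase that binds Hsp90, -0.00 and -0.53, and HSP82, the inducible Hsp90, 0.14 and 0.04. HCH1, a smaller relative of AHA1, read 0.38 and 0.27, above 0 on both slides. The remaining co-chaperones were SGT1 at -0.22, TAH1 at -0.16, CNS1 at -0.10, STI1 at -0.09 and SBA1 at -0.03. Other heat shock proteins were split, with 10 of 19 below 0, from ZUO1 at -0.59 to HSP12 at 0.53.

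In the list of ribonucleotide reductase and DNA damage genes 13 of 29 were measured, and 0 of these passed, beside 0.16% of all genes, so the count says nothing particular of the list. Their median was 0.03. RNR1, RNR3 and HUG1 were among the genes not analysed here. RNR2, the iron-binding small subunit of ribonucleotide reductase, read -0.07 and 0.20 (95% interval of the fitted ratio -0.21 to 0.33), and its partner RNR4 0.15 and 0.17 (-0.08 to 0.40). The lowest member was the DNA glycosylase MAG1 at -0.27, and the kinases RAD53 and DUN1 of the checkpoint read 0.04 and 0.11. Of the 16 cyclins and cell cycle regulators 7 were below 0, from SWE1 at -0.34 to NDD1 at 0.16, with a median of 0.01.

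Among larger groups, the proteasome had 19 of 23 genes above 0, 17 on both slides, with a median of 0.12, from PUP1 at -0.24 to PRE8 at 0.38. Cytosolic ribosomal proteins had 35 of 49 above 0 with a median of 0.05, and ribosome biogenesis genes 34 of 48 below 0 with a median of -0.05. None of these lists held a gene past the threshold, beside 0.16% of all genes. Of all genes 49.1% were above 0 and 50.9% below. Genes of the pheromone response had 11 of 14 below 0 with a median of -0.07, and PRM4 alone passed, beside 0.16% of all genes. All 5 alpha-cell genes were below 0, from MF(ALPHA)2 at -0.46 to AFB1 at -0.08, of which 2 were below 0 on both slides. The a-cell genes MFA1, MFA2, STE6 and AGA2 lay between -0.05 and -0.01.

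Of the enzymes of amino acid and lipid synthesis that use iron, 8 of 11 were above 0, beside 49.1% of all genes. OLE1 was higher and alone passed, beside 0.16% of all genes. The others ran from ILV3, an enzyme of isoleucine and valine synthesis, at -0.43 to the sterol enzyme ERG25 at 0.32. The remaining metal lists had medians close to 0. Copper genes had 4 of 8 below 0 (median 0.01), from SOD1 at -0.14 to SCO1 at 0.15. Zinc genes had 4 of 10 below 0 (median 0.00), from COT1 at -0.17 to IZH4 at 0.39, and phosphate genes 4 of 10 (median 0.01), from PHO86 at -0.16 to VTC4 at 0.42.

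**Figure D4:**
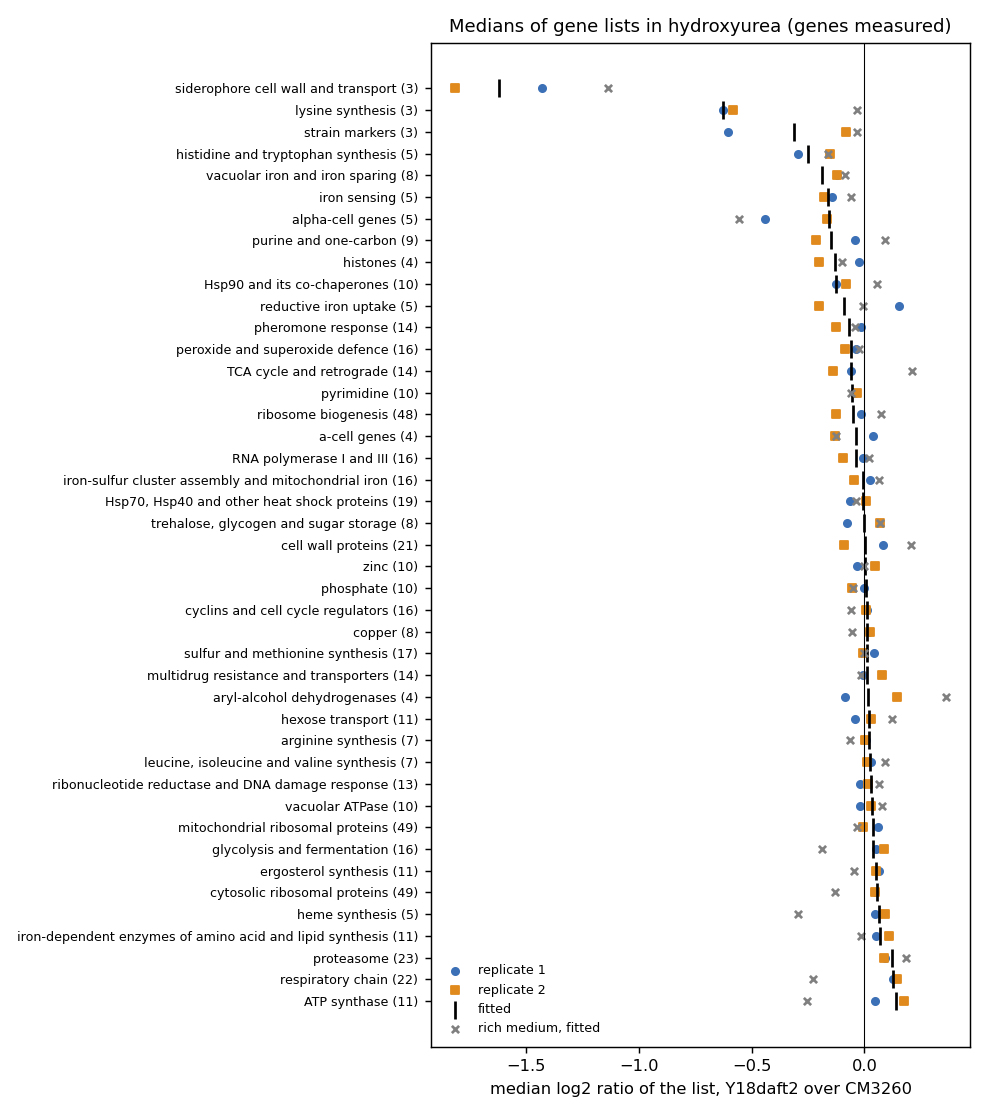
Median log2 ratio of each of 43 gene lists in hydroxyurea, circles for replicate 1, squares for replicate 2, bars for the fitted values and crosses for the fitted values in rich medium, with the number of genes measured in brackets. Siderophore genes at -1.62 and lysine synthesis at -0.63 rest on 3 genes each, and the respiratory chain at 0.12 and ATP synthase at 0.14 are at the upper end, opposite to their crosses.

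The same strain pair without the drug shows which ratios differ between the cultures. By the labels those in hydroxyurea were also kept 2 hours longer, so a difference cannot be ascribed to the drug alone. All 5 genes past the threshold in hydroxyurea had the same sign in rich medium, and 4 of them, all but AHA1, passed there too, where 63 genes (2.01%) passed. ENB1 read -1.20 and -1.07 on the rich medium slides, FIT3 -2.67 and -2.43, PRM4 -1.35 and -1.22, OLE1 0.92 and 0.86, and AHA1 -0.26 and -0.36. The 30 genes lower in rich medium had a median of -0.75 there and -0.03 in hydroxyurea, and the 33 higher had 0.67 there and 0.04 in hydroxyurea. These genes were chosen by their ratios in rich medium, so the medians are a description and were not tested.

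The difference between hydroxyurea and rich medium passed for 23 genes (0.736%), 10 lower and 13 higher in hydroxyurea, and 364 had an unadjusted p under 0.05 (limma). For 20 of the 23 the ratio was larger in size in rich medium, and the exceptions were ENB1, AHA1 and CHO2. ENB1 was lower by a further 1.11 on the log2 scale in hydroxyurea (difference -1.11, SE 0.158; adjusted p = 0.0135, limma) and AHA1 by a further 1.16 (difference -1.16, SE 0.158; adjusted p = 0.0123, limma). FIT3 differed the other way, by 0.93, and did not pass (adjusted p = 0.0522, limma).

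By list, the difference passed for 2 of 9 purine and one-carbon genes, 1 of 14 TCA cycle and retrograde genes, 1 of 22 respiratory chain genes and 1 of 11 ATP synthase genes, beside the 0.736% of all genes. It also passed for 2 of 13 ribonucleotide reductase and DNA damage genes and 2 of 17 sulfur and methionine genes. Further lists had 1 each: siderophore (of 3), copper (of 8), Hsp90 (of 10) and glycolysis and fermentation (of 16). For the first 3 genes named next the ratio of mutant over wild type was lower in hydroxyurea than in rich medium. For the other 2 that ratio was higher. CIT2, the peroxisomal citrate synthase that responds to mitochondrial dysfunction, read -0.47 and -0.46 in hydroxyurea and 1.11 and 1.02 in rich medium (difference -1.53, SE 0.153; adjusted p = 0.00382, limma). GCV1, a subunit of glycine decarboxylase, read -0.03 and -0.73 in hydroxyurea and 1.44 and 2.04 in rich medium (difference -2.12). SHM2, serine hydroxymethyltransferase, differed by -1.06. CYC1 turned the other way, with 0.51 and 0.50 in hydroxyurea and -0.65 and -0.61 in rich medium (difference 1.14, SE 0.152; adjusted p = 0.0123, limma), and INH1 differed by 0.96.

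Of 21 cell wall genes 1, SED1, differed, beside 0.736% of all genes. Of 16 genes of peroxide and superoxide defence 2 did, SOD1 and TRX1, in opposite directions. SED1, a cell wall glycoprotein, read 0.19 and -0.12 in hydroxyurea and 1.56 and 1.55 in rich medium, a difference of -1.52. The superoxide dismutase SOD1, the polyubiquitin gene UBI4 and the stress gene GRE1 differed by -0.91, -0.89 and -0.92. In the opposite direction, RNR2 read -0.98 and -1.09 in rich medium and differed by 1.09, TRX1, a thioredoxin, by 1.14, and the sulfurtransferase RDL1 by 1.11.

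**Figure D5:**
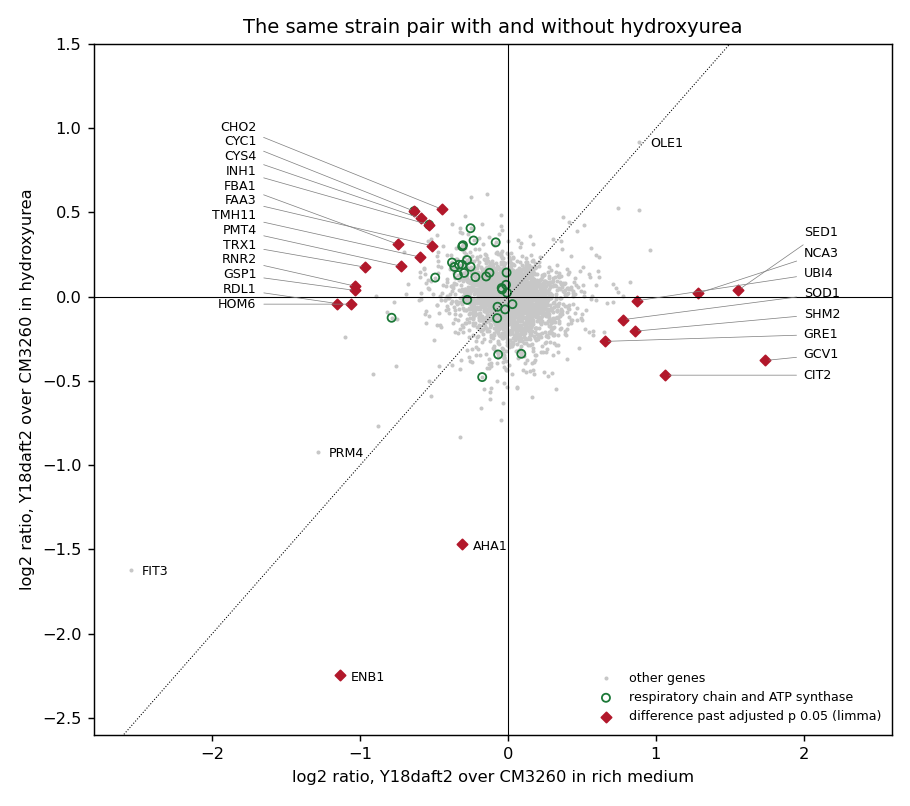
Fitted log2 ratio of Y18daft2 over CM3260 in rich medium (horizontal) and hydroxyurea (vertical), each point 1 gene, diamonds for the 23 genes whose difference passed and open circles for respiratory chain and ATP synthase genes. For 20 of the 23 diamonds the horizontal value is larger in size than the vertical one, while ENB1 and AHA1 lie far below the dotted line of equality.

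None of these differences passed when either hydroxyurea slide was left out, in the values as deposited or only median-centred, or from strong scans alone. The counts at an unadjusted p under 0.05 (limma) were then 427 without replicate 1, 194 without replicate 2, 59 as deposited, 110 median-centred and 262 from strong scans. Without replicate 1 of the rich medium slides 83 differences passed, without replicate 2 of them 25, and without either slide of the aft1 strain 7.

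Set against the aft1 strain in the same drug, 11 genes (0.352%) differed, 9 lower and 2 higher in Y18daft2, and 350 had an unadjusted p under 0.05 (limma). Among the 5 genes past the threshold in Y18daft2, ENB1, FIT3 and OLE1 also passed in the aft1 strain, where 40 genes (1.28%) passed. In the aft1 strain ENB1 read -1.29 and -1.44, FIT3 -1.78 and -1.68, and OLE1 1.16 and 1.02. AHA1 read 0.05 and 0.20 and PRM4 0.05 and 0.10 in the aft1 strain, and their differences passed (AHA1 -1.59, SE 0.158, adjusted p = 0.00175; PRM4 -0.99, SE 0.160, adjusted p = 0.0299, limma).

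SMF3 read 0.52 and 0.85 in the aft1 strain against -0.97 and -0.70 in Y18daft2, a difference of -1.52 (SE 0.219; adjusted p = 0.0214, limma). CYC1 was below 0 in the aft1 strain, at -0.65 and -0.70, and differed by 1.18. CIT2 differed by -1.02 and the small heat shock protein HSP26 by -1.10. The sodium-phosphate cotransporter PHO89 and the membrane protein IZH4 were high in the aft1 strain, at 1.24 and 1.29, against 0.01 and 0.39 in Y18daft2. AFT1 itself differed by 2.88, since its spot was low in the aft1 strain alone, and the direction of all ratios was set from that spot. AHA1, CIT2 and CYC1 were the 3 genes that passed both in this difference and in that from rich medium.

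Without either hydroxyurea slide of Y18daft2 no difference from the aft1 strain passed, and without either slide of the aft1 strain 1 did. The counts at an unadjusted p under 0.05 (limma) without replicate 1 and without replicate 2 of Y18daft2 were 315 and 255. Without either rich medium slide 58 passed, and 1 passed in the values as deposited or only median-centred. As deposited, the median of this difference over all genes was 0.21, not 0.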

How the data were processed

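The values analysed are log ratios of the channels of each slide, in the table the authors deposited, read here as log2. Per the labels' protocols, total RNA came from a spin-column extraction and was labelled by an indirect method. Background correction, spot filters and normalisation by the authors, the dyes, the log base and the ratio's direction are not given in the sources used here. Spot intensities were not used, so signal over background is unknown.

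Exact zeros of strong scans were set to missing and each column was centred on its median. A loess trend (span 0.3) of each column on the mean over the 6 slides in channel orientation was removed, scans of a slide were averaged, ratios were turned to mutant over wild type and spots of a gene averaged (207 genes had more than 1 spot). Turning assumes that the deposited ratio is channel 1 over channel 2. Centring makes each ratio relative to the other genes of its slide. A table of platform annotation named the genes, 387 spots with several symbols and 3181 spots it does not list were left out, and 3126 genes matched a locus tag. limma 3.58.1 in R 4.3.3 fitted 1 coefficient per comparison and 1 for the channel of the mutant, which equals a replicate block, over 6 slides (2 residual and 8.32 prior degrees of freedom). Benjamini-Hochberg adjustment ran over 3127 genes with a threshold of 0.05. The procedure was run on simulated data with the same noise level for all genes and trends like those it removes. That run does not measure its errors on these slides.

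The members, the 43 gene lists and the normalisation were chosen with earlier results of these data known. Named genes were AFT1 and AFT2, every gene past the threshold in hydroxyurea or in a difference with it, the 12 lowest and 12 highest with 1 sign in every scan, all members of lists of up to 10 genes described and otherwise those at the ends, and the 5 with the widest gap between slides. Other list members given with values were chosen after their values were seen. Alternatives changed the centring, the trend axis, zeros, scans, the channel coefficient, the slides fitted and the filter. Leaving out a slide kept the normalisation of all slides.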

Additional observations from a re-analysis of the deposited data

Results flagged for a closer look

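The following genes had a ratio of Y18daft2 over CM3260 in hydroxyurea that differed from another comparison by a test of the difference itself (limma, adjusted over 3127 genes). None of them is weighed further here, and the report gives how the counts changed when a slide was left out.

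From the ratio in rich medium, 10 genes differed downward in hydroxyurea. The difference was -2.12 for GCV1, -1.53 for CIT2, -1.52 for SED1 and -1.27 for NCA3, a gene of the SUN family. It was -1.16 for AHA1, -1.11 for ENB1 and -1.06 for SHM2, then -0.92 for GRE1, -0.91 for SOD1 and -0.89 for UBI4. AHA1 and ENB1 were the ones also past the threshold in hydroxyurea itself.

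In the other direction 13 genes differed from rich medium. CYC1 and TRX1 differed by 1.14 each, RDL1 by 1.11 and RNR2 by 1.09. The Ran GTPase gene GSP1 differed by 1.07, the aldolase gene FBA1 by 1.06, CYS4 by 1.05 and HOM6, homoserine dehydrogenase, by 1.02. CHO2 and INH1 differed by 0.96 each, the mannosyltransferase gene PMT4 by 0.90, TMH11 by 0.83 and FAA3, an acyl-CoA synthetase, by 0.81. The ratio in hydroxyurea and that in rich medium had opposite signs for 17 of the 23 genes.

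From the aft1 strain in hydroxyurea, 11 genes differed. AFT1 differed by 2.88 and CYC1 by 1.18. On the lower side were AHA1 at -1.59, SMF3 at -1.52, PHO89 at -1.23, YJR028W at -1.17, HSP26 at -1.10, YOR296W at -1.07, CIT2 at -1.02, PRM4 at -0.99 and IZH4 at -0.90. YJR028W is an open reading frame of a Ty retrotransposon, whose near-identical copies a spot may not tell apart, and its strong scan of replicate 1 read 0.57 where the weak scan read -0.39.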

How the results depend on the processing

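The number of genes past the threshold in hydroxyurea was 5, and 2 as deposited, 2 only median-centred, 12 from weak scans, 3 from strong scans, 9 with no replicate block, 87 from the slides of this comparison alone, 0 with columns taken as already turned, and 1 to 29 when 1 slide was left out. With the trend axis of each comparison taken from the slides of the other comparisons, an alternative chosen after seeing the data, it was 3, without PRM4 and OLE1. Strong scans alone tested 2921 genes, and PRM4 and OLE1 were not among them, so these could not pass there. The difference from rich medium, 23 genes, became 0 as deposited, median-centred, from strong scans, with columns already turned or with the axis of other comparisons. It became 45 with print blocks centred, 83 from weak scans, 12 with the axis from weak scans, 66 with no replicate block, 72 with all 12 columns and the slide as a random block, and 0 to 83 leaving out 1 slide. The difference from the aft1 strain, 11 genes, became 1 as deposited, median-centred or with the axis of other comparisons, 22 with print blocks centred, 62 and 2 from weak and strong scans, 24 with no replicate block, 49 with all 12 columns, 0 with columns already turned, and 0 to 58 leaving out 1 slide. Where 1 slide is left out, the lone slide is assumed to vary like the others. The causes of these shifts were not tested.

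ENB1 stayed past the threshold under 18 of 19 alternatives, FIT3 under 16 and AHA1 under 14 of 19, OLE1 under 12 and PRM4 under 11 of 18. These alternatives are not independent checks. The change of the gene filter left the values of these genes as they were. Leaving out either slide of another comparison gave them the same values. With a rich medium slide left out they shared a common SE of 0.1415, and with the slides of this comparison alone 0.1149. With all 12 columns fitted, the adjusted p in limma was 0.123 for FIT3 and 0.442 for PRM4. Signs of called values reversed with columns taken as already turned and under no other alternative run: ENB1 at 0.0010, the differences from rich medium of AHA1 at 0.011, CIT2 at 0.042, GRE1 at 0.074, NCA3 at 0.392, FAA3 at -0.019, FBA1 at -0.0035 and CYC1 at -0.025, and YOR296W from the aft1 strain at 0.163. With no intensities, what depth limits cannot be read.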

Other observations

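Spots without a single gene symbol, 3568 in all, were outside the comparisons above. Of these, 5 were at least 2-fold lower and 2 at least 2-fold higher in Y18daft2 on both hydroxyurea slides, against 3 and 0 among the spots with a single symbol. All 7 are absent from the annotation table, so their genes are not named here.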
